A study of Mus musculus with 2 samples.

Results

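The genes Mbp, Pmp22, Mag, Prx, Mal, Cnp, Drp2 and Pllp, all known for peripheral myelin, were read in single GFP+ cells of denervated mouse muscle. These 8 were chosen by name among the 32287 features of the expression matrix, and the rule itself used no measured value, although earlier results of these data were known. The cells came from tibialis anterior and gastrocnemius muscle of S100GFP transgenic mice without any other modified allele, 2 months old, taken 7 days after a sciatic nerve crush, and live cells were sorted as GFP+ and PI-. GFP in this line is driven by S100B regulatory sequence, and here the sort held many cells that were not Schwann cells. The methods name pooled male mice and the series text names 1 crushed mouse, and how many animals gave cells to it is uncertain. The GFP- library of the same muscles was not analysed here, and with 1 library there was no replicate and no test. Every interval given below is a 95% interval for counting error only, and molecules lost before capture and differences between mice are outside it.

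Myelinating Schwann cells wrap 1 segment of axon in a membrane that is compacted layer on layer, with compact myelin, uncompacted channels of cytoplasm, an inner face against the axon and an outer face against the basal lamina. When the axon is cut off, Schwann cells distal to the injury are known to turn their myelin genes down and to take up a repair state until axons return. MBP, PMP22, MAL and plasmolipin (Pllp) are proteins of the compact membrane, MAG and CNP sit in its uncompacted parts, and periaxin (Prx) with DRP2 joins the outer face to the basal lamina through dystroglycan.

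Cells were assigned to classes by gates on UMIs (counted RNA molecules) of marker genes among barcodes with at least 5000 UMIs. Of 36400 barcodes, 8894 reached that depth and 8701 of these also had over 200 genes and under 10% mitochondrial counts, with a median of 11624 UMIs. One gate alone was passed by 7636 barcodes, several by 587 and none by 478. The Schwann gate asked for at least 3 UMIs over at least 2 of Sox10, Cdh19, Erbb3, Foxd3, Zfp536 and Gfra3, none of which is a member. It was passed by 123 barcodes, and 43 of these were left out because they also passed another gate, most often that of macrophages (23) or of mesenchymal cells (19). The 80 that remained were 1.05% of the gated cells and held 791012 UMIs, with 5056 to 31490 per cell. All 7 Schwann genes kept out of the gate as a check (S100b, Ngfr, Sox2, Gap43, Ncam1, L1cam and Fabp7) were at least 2-fold higher there than in all other gated cells, where 24.1% of all tested genes were. Sox2, with 162 of its 172 gated UMIs in the Schwann gate, reached the minimum for testing of 50 UMIs only through that gate and had to be higher. Ncam1 was higher still in satellite cells, and S100b (19.0 CPM) was not separated from mesenchymal cells (15.8 CPM, log2 ratio 0.26, -0.59 to 1.00). Among the 8701 cells, 84 barcode sequences also occurred in the GFP- library, 2 of them in the Schwann gate.

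Mal and Pllp were the members most restricted to the Schwann gate, Cnp the member found in most of its cells, and Pmp22 the member at a higher level in most other classes. The bases before their transcription start are therefore shown. They are from RefSeq on GRCm38.p6, 5′ to 3′ on the gene's strand, ending just before the first base of the gene. Capitals mark ACAAAG (a core letter run of Sox factor sites), GCGTGGG (of Egr factor sites) and GGGCGG (a GC box) on either strand.
Mal, chr2:127656696-127656945, minus strand: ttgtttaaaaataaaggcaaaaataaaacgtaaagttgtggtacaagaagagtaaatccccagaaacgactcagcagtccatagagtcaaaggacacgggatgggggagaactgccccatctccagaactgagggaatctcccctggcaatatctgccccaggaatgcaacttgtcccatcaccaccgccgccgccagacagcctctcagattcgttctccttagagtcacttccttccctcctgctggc
Pllp, chr8:94696243-94696492, minus strand: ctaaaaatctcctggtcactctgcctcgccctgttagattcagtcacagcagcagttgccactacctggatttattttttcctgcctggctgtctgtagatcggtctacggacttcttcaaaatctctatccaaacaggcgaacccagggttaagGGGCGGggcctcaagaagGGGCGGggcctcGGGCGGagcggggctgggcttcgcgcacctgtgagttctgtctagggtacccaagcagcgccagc
Cnp, chr11:100574689-100574908, plus strand: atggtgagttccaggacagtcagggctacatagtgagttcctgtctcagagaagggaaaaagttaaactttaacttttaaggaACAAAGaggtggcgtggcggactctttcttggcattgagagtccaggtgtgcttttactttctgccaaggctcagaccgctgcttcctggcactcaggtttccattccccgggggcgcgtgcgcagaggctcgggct
Pmp22, first of 4 listed starts, chr11:63128732-63128981, plus strand: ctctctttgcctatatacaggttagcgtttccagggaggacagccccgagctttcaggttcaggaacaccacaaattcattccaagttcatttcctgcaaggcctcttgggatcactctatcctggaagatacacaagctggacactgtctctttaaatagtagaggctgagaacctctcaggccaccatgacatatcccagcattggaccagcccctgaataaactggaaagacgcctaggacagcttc
The window of Pllp holds GGGCGG 3 times and that of Cnp holds ACAAAG once and GGGCGG 2 times, the latter in the last 30 bases, which lie inside the annotated gene and are not printed, while the windows of Mal and of the first Pmp22 start hold none of these letters. Of the 8 members, 6 had a window in the table. Among those not shown, the window of the first Mag start held ACAAAG and that of Prx held GCGTGGG. Over 32851 windows of 250 bases, 16.5% held ACAAAG, 4.30% held GCGTGGG and 32.7% held GGGCGG. Counts taken at the 3′ end of transcripts do not tell the 4 Pmp22 starts apart.

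Of the 7 members that could be compared, 5 were at least 2-fold higher in gated Schwann cells than in all other gated cells (Mbp, Mag, Prx, Mal and Cnp), and 2 were at least 2-fold lower (Pmp22 and Drp2). Of 16084 genes with at least 50 UMIs over all gated cells, 24.1% were at least 2-fold higher and 28.2% at least 2-fold lower in the same comparison. Pllp held only 28 UMIs and did not reach that minimum. Mal reached it only through the Schwann gate, with 57 of its 68 UMIs, so it had to be higher there. Without the minimum 6 of the 8 members were higher, against 21.5% of genes, and these counts are a description. The median log2 ratio of the 7 members was 1.77, against 0.17 over all 16084 genes. The log2 ratio was 9.33 for Mal (8.38 to 10.41), 3.90 for Cnp (3.69 to 4.09), 2.72 for Mag (1.56 to 3.68), 1.77 for Prx (0.63 to 2.71) and 1.57 for Mbp (1.14 to 1.97). It was -1.52 for Pmp22 (-1.85 to -1.20), so the members did not share 1 direction. These ratios weigh the other classes by their UMIs, mostly those of macrophages, and with equal weights, chosen after the data were seen, they were 5.67 for Mal, 5.04 for Mag and 4.33 for Cnp. Drp2, at -1.74, rested on 1 UMI in the Schwann gate, and its interval (-7.05 to 0.74) covered no change. With the 43 barcodes of several gates kept in the Schwann class, the log2 ratio was 1.00 for Mbp, just under 2-fold, -0.99 for Pmp22 and -0.32 for Drp2, so these 3 calls were lost. The Drp2 call was also lost with a minimum of 10000 UMIs (log2 ratio -0.35).

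**Figure D1:**
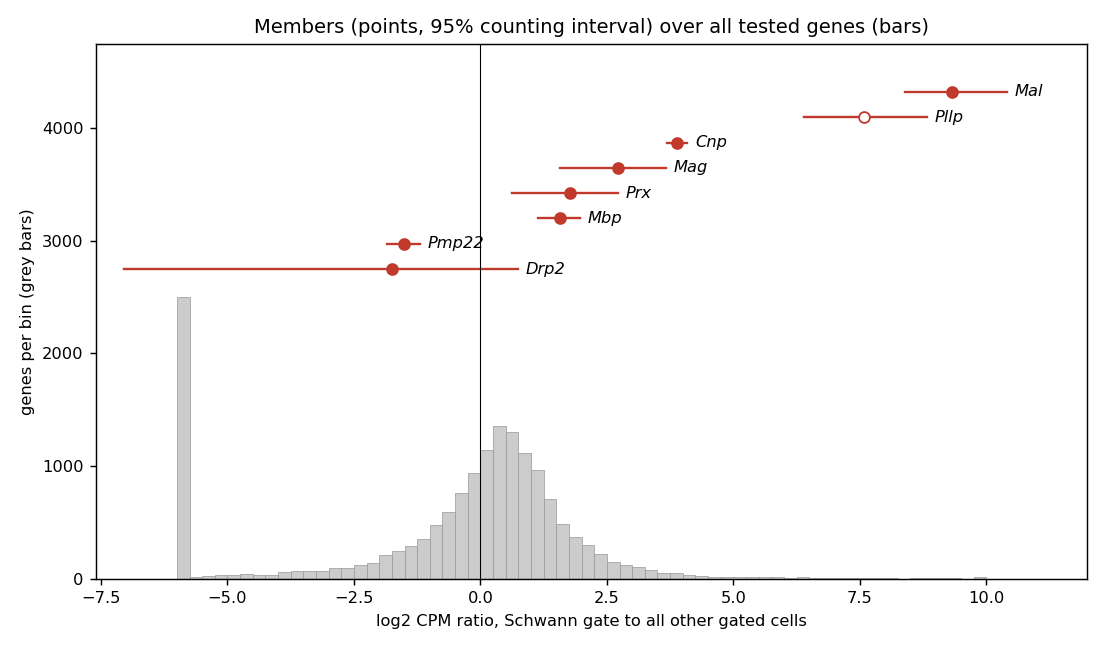
Log2 ratio of the summed level (CPM) in the Schwann gate to that in all other gated cells, for the 8 members (red points with 95% counting intervals, Pllp open because it was under 50 UMIs) above the number of genes per bin for all 16084 tested genes (grey, the outermost bins also holding genes beyond the axis, such as those with no UMI in the Schwann gate). Mal (9.33), Pllp (7.58) and Cnp (3.90) lie far to the right, whereas Pmp22 (-1.52) lies on the left.

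Levels are given as CPM, the UMIs of the gene per 1000000 UMIs of the class, and each gene is compared only with itself across classes. The 9 classes with at least 20 cells were Schwann (80 cells), macrophage and monocyte (5193), dendritic (328), mesenchymal (1265), tenocyte (374), endothelial (39), smooth muscle and pericyte (48), satellite cell and myoblast (247) and muscle fibre (24).

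**Figure D2:**
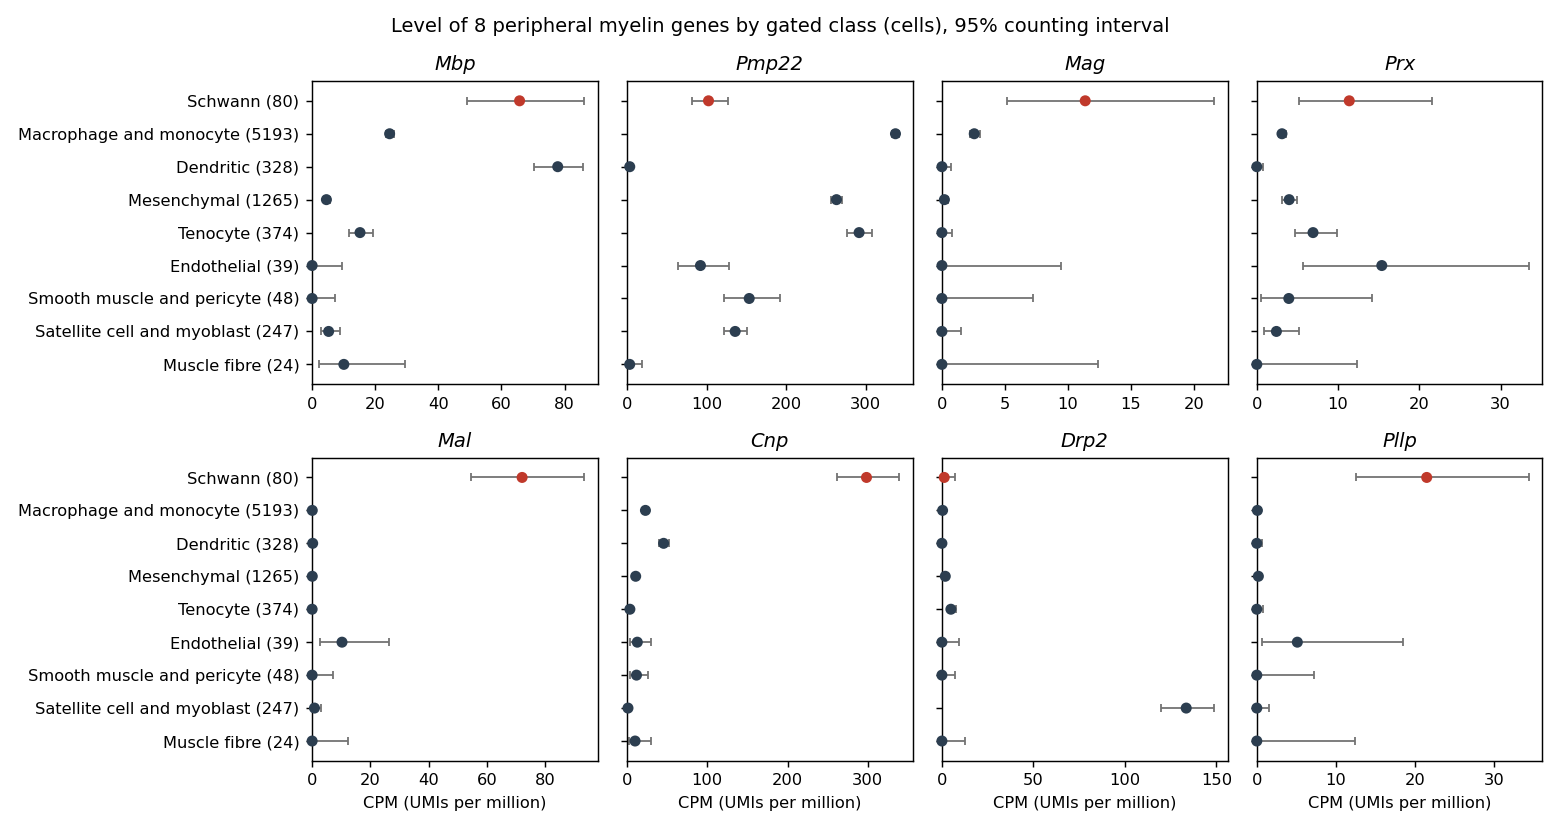
Level in CPM (x axes, linear, 1 scale per gene) of the 8 members in the 9 gated classes with at least 20 cells (cell numbers in brackets), Schwann gate in red, with exact Poisson 95% intervals. Mal, Cnp and Pllp peak in the Schwann gate, Pmp22 in macrophages, tenocytes and mesenchymal cells, and Drp2 in satellite cells.

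Among the compact myelin genes, Mal was the clearest mark of the Schwann gate. Mal (chr2:127633226-127656695), which encodes a raft-associated proteolipid, stood at 72.1 CPM there (54.6 to 93.4, 57 UMIs in 22 of 80 cells). The Schwann gate held 83.8% of all its gated UMIs (72.9 to 91.6%), from 0.799% of the gated UMIs of all genes. Its next level was 10.3 CPM in endothelial cells (4 UMIs), and the log2 ratio of the Schwann gate to that class was 2.81 (1.38 to 4.74). Mesenchymal cells and dendritic cells held 1 Mal UMI each, macrophages held 3 in 5193 cells, and satellite cells held 2. None was counted in 374 tenocytes, 48 smooth muscle cells or 24 muscle fibres.

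Pllp was also highest in the Schwann gate, at a lower count. Pllp (chr8:94674895-94696242) encodes plasmolipin, a tetraspan membrane protein of compact myelin, and reached 21.5 CPM in the Schwann gate (12.5 to 34.4, 17 UMIs in 10 cells). That was 60.7% of its 28 gated UMIs (40.6 to 78.5%). Endothelial cells held 2 UMIs (5.13 CPM), and the log2 ratio of the Schwann gate to them, 2.07, had an interval of -0.01 to 5.23, so these neighbours were not separated beyond counting error. The remaining Pllp UMIs were 5 in macrophages and 4 in mesenchymal cells.

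Mbp was as high in dendritic cells as in the Schwann gate. The gene, on chromosome 18, encodes myelin basic protein, which holds the inner membrane faces together, and it also gives golli transcripts, which a count per gene does not separate. Its level was 65.7 CPM in the Schwann gate (49.1 to 86.2, 52 UMIs in 30 cells) and 77.8 CPM in dendritic cells (70.5 to 85.8, 408 UMIs in 188 of 328 cells). The log2 ratio of dendritic to Schwann cells was 0.24 (-0.18 to 0.69). Macrophages followed at 24.6 CPM (23.4 to 25.8), tenocytes at 15.2, satellite cells at 5.23 and mesenchymal cells at 4.53. The muscle fibre value, 10.1 CPM, was 3 UMIs in 1 cell and was separated neither from tenocytes nor from satellite cells. No Mbp UMI was found in endothelial cells (0 of 39 cells, which allows a share of up to 7.69% with a UMI) or smooth muscle cells (0 of 48, up to 6.25%). The 14 cells of the T and NK gate, too few for the comparison of classes, held 15 Mbp UMIs, or 81.2 CPM (45.5 to 134).

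Pmp22 went the other way. Pmp22 (chr11:63128982-63159547), whose dosage is altered in inherited neuropathies of the Charcot-Marie-Tooth kind and which is also known as a growth arrest gene of fibroblasts, was highest in macrophages at 337 CPM (333 to 342), followed by tenocytes at 292 (276 to 308) and mesenchymal cells at 263 (256 to 270). Each of these 3 levels differed from the next beyond counting error. Smooth muscle cells (154) and satellite cells (136) came next and were not separated from each other. The Schwann gate stood at 102 CPM (81.3 to 127, 81 UMIs in 28 cells), close to endothelial cells at 92.3 (64.6 to 128). Dendritic cells (3.43) and muscle fibres (3.35) held almost none. With every other class weighted equally rather than by its UMIs, which was chosen after the data were seen, the log2 ratio was -0.64 and Pmp22 was no longer 2-fold lower.

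The genes of uncompacted myelin were both highest in the Schwann gate. Cnp (chr11:100574909-100591875), a cyclic nucleotide phosphodiesterase that keeps cytoplasmic channels open in myelin, reached 298 CPM there (261 to 339, 236 UMIs in 69 of 80 cells). Dendritic cells followed at 45.6 CPM (40.0 to 51.7) and macrophages at 23.0 (21.8 to 24.2), and the log2 ratio of the Schwann gate to dendritic cells was 2.71 (2.44 to 2.98). Endothelial cells at 12.8 CPM were not separated from macrophages. The 5 remaining classes lay between 1.21 CPM in satellite cells and 11.8 in smooth muscle cells, and no neighbours in their order were separated beyond counting error. Classes further apart were, since the interval of mesenchymal cells (10.8 CPM, 9.41 to 12.3) lay above those of tenocytes (2.04 to 5.80) and satellite cells (0.249 to 3.52). Cnp overlaps Dnajc7 in the annotation, and reads of overlapping genes may be shared where counting does not use strand.

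Mag (chr7:30899175-30914922), the lectin of the membrane that faces the axon, rested on 9 UMIs in 7 cells of the Schwann gate, or 11.4 CPM (5.20 to 21.6). Macrophages held 165 UMIs in 154 of 5193 cells, or 2.57 CPM (2.19 to 2.99), which was 92.2% of all gated Mag UMIs. The log2 ratio of the Schwann gate to macrophages was 2.15 (0.99 to 3.11). Mesenchymal cells held 4 Mag UMIs, and the other 6 classes held none.

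Periaxin and DRP2 differed from each other across classes. Prx (chr7:27499305-27520041), the scaffold that binds DRP2, was at 11.4 CPM there (5.20 to 21.6, 9 UMIs in 8 cells). Endothelial cells stood at 15.4 CPM (5.64 to 33.5, 6 UMIs) and tenocytes at 6.92 (4.70 to 9.82), and neither was separated from the Schwann gate beyond counting error, although all other gated cells together were lower at 3.34 CPM. Drp2 (chrX:134404124-134456574) encodes a protein of the dystrophin family and gave 1 UMI in 80 Schwann cells, or 1.26 CPM (0.03 to 7.04).

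Drp2 was a gene of the satellite cell and myoblast gate instead. Satellite cells, the stem cells of muscle, held 332 of the 417 gated Drp2 UMIs, at 133 CPM (120 to 149), in 173 of 247 cells. Of those cells 86 had 1 UMI, 47 had 2, 24 had 3, and the highest had 8. The next class, tenocytes, was at 4.91 CPM, and the log2 ratio between them was 4.77 (4.14 to 5.46). In macrophages 12 of the 24 Drp2 UMIs were in 1 cell.

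Each of the other classes was set in the same way against all remaining gated cells. Macrophages had 1 member at least 2-fold higher, Mag (15.2% of genes), and 2 at least 2-fold lower, Mal and Drp2 (27.3%). Mag, with 165 of its 179 gated UMIs in macrophages, reached the minimum for testing only through that class, so this call is a description. Mal, with 57 of its 68 gated UMIs in the Schwann gate, was tested only because of that gate. Its calls in the other classes are therefore descriptions too. In dendritic cells Mbp and Cnp were 2-fold higher, where 7.56% of genes were, and the 5 other tested members were 2-fold lower (41.4%). Endothelial cells had 2 higher, Prx and Mal (18.2%), and 4 lower (34.2%). Satellite cells had 1 higher, Drp2 (12.2%), and 4 lower (33.2%). In tenocytes Prx was higher (17.1%) and Mag, Mal and Cnp were lower (25.2%). No member was 2-fold higher in mesenchymal cells (21.0%), smooth muscle cells (17.4%) or muscle fibres (12.8%), which had 5 (21.9%), 4 (36.9%) and 7 (65.0%) lower. In muscle fibres 1 UMI is 3.35 CPM and in smooth muscle cells 1.97, so lower calls on 0 UMIs of Mag or Mal there say little. The Schwann gate, with 5 higher, had the largest number of the 9 classes, and also the largest share of all tested genes at 24.1%. Mal, which had to be higher there, is among the 5.

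The share of cells with a UMI depends on depth, and median depth was 8562 UMIs in the Schwann gate, 11260 in macrophages, 14651 in dendritic cells and 9172 in satellite cells. Every cell was therefore also cut down by random draw to 5000 of its UMIs. After thinning, 75.0% of gated Schwann cells held a Cnp UMI (64.1 to 84.0%, 86.2% without thinning), against 17.1% of dendritic cells (13.2 to 21.6%), 11.1% of macrophages (10.2 to 11.9%) and 0.405% of satellite cells (0.0102 to 2.23%). The part of free RNA in these shares was not tested. Mal was in 18.8% of Schwann cells (10.9 to 29.0%, 27.5% without thinning) and in 0.0385% of macrophages. Cnp and Mal were thus in a larger share of Schwann cells than of these classes at equal depth. Endothelial cells, next in Mal level, held a Mal UMI in 5.13% of cells (0.627 to 17.3%, 2 of 39 cells), which overlapped the Schwann interval. Mbp was in 21.2% of Schwann cells (12.9 to 31.8%, 37.5% without thinning) and in 28.4% of dendritic cells (23.5 to 33.6%, 57.3% without thinning). Pmp22 was in 22.5% of Schwann cells (13.9 to 33.2%, 35.0% without thinning) but in 72.2% of mesenchymal cells, 70.1% of tenocytes and 61.5% of macrophages. Pllp (5.00%), Mag (2.50%) and Prx (1.25%) were rare at this depth, and no Drp2 UMI was left in this draw (0 of 80 cells, which allows a share of up to 3.75% of cells with a UMI at this depth, 1 cell without thinning). Such low shares depend on the draw, and the exact expected shares over all draws, added after the data were seen, were 6.75% for Pllp, 4.96% for Mag, 5.35% for Prx and 0.468% for Drp2.

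Markers of other classes were measured in the 80 gated Schwann cells too. All 9 macrophage markers were detected, with a summed level of 118 CPM against 8420 CPM in macrophages and 104 to 282 CPM in the 6 classes outside the myeloid gates and the Schwann gate. All 7 mesenchymal markers were detected, at 253 CPM against 4711 CPM in mesenchymal cells, 388 CPM in satellite cells and 13.9 to 206 CPM in the other classes. Of the 7 dendritic markers 3 were detected, at 139 CPM against 1128 CPM in dendritic cells and 21.7 to 115 CPM in the other classes, and Flt3, Xcr1, Cd209a and Ccr7 were at 0. Smooth muscle and pericyte markers (4 of 8 detected) summed to 228 CPM, endothelial markers (6 of 8) to 149 CPM and perineurial markers (5 of 6) to 111 CPM, the last the highest of the 9 classes. The part of these cells' RNA in the members' levels in the Schwann gate was not tested.

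Within the Schwann gate the members were spread unevenly over cells, counted without thinning. The cell with 6 members held 22203 UMIs and the 4 cells with none held 5340 to 6366, and the part of depth was not tested. At least 1 member was detected in 76 of 80 cells, and at least 3 in 30. One member was found in 25 cells, 2 in 21, 3 in 18, 4 in 7, 5 in 4 and 6 in 1, and in 20 of the 25 cells with 1 member that member was Cnp. Mal was found with Cnp in 20 of its 22 cells and with Mbp in 10. Pmp22 was found with Cnp in 27 of its 28 cells and with Mal in 12. Cnp was in 69 of all 80 cells, so a high joint count with Cnp is not particular to these genes. Prx and Mag shared 1 cell. The 5 cells richest in a gene held 21.2% of the Cnp UMIs, 38.5% of the Mbp UMIs, 49.4% of the Pmp22 UMIs and 52.6% of the Mal UMIs. The highest count in 1 cell was 13 for Cnp, 12 for Pmp22, 8 for Mal, 5 for Mbp and 3 for Pllp. Cnp had 236 UMIs and the others 17 to 81, and such shares fall as the total rises, so they are not compared between genes.

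**Figure D3:**
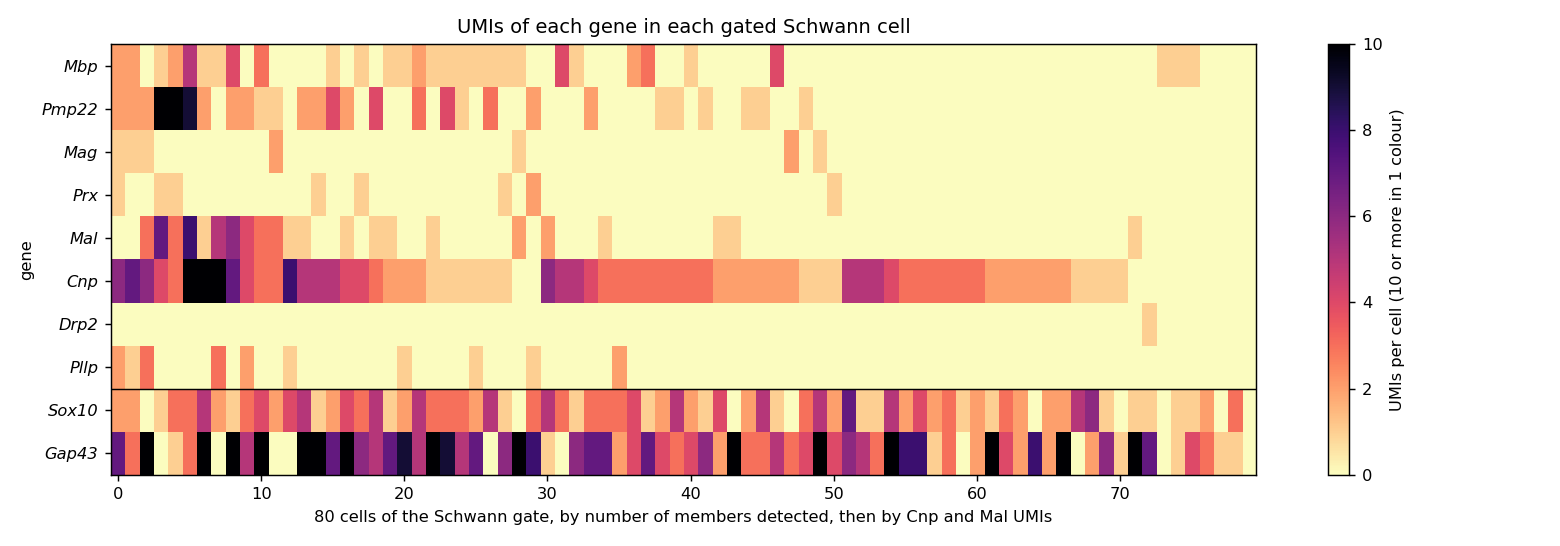
UMIs of the 8 members, of Sox10 (a gate gene) and of Gap43 (rows) in each of the 80 gated Schwann cells (columns), ordered by the number of members detected and then by Cnp and Mal UMIs, with 10 or more UMIs in 1 colour. Cnp runs through 69 of the 80 cells, Mal is in 22 and Drp2 is found in 1 cell. The place of the Mal UMIs toward the left is set in part by this ordering.

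Of a list of 20 other myelin genes, 10 passed the minimum of 50 UMIs, and 6 of these were at least 2-fold higher in the Schwann gate, against 24.1% of all tested genes. These were Gal3st1, Gldn, Cadm4, Ndrg1, Nfasc and Cd9, and the median log2 ratio of the 10 was 1.57. Without the minimum, 16 of the 20 were 2-fold higher, against 21.5% of all genes with a UMI, and the median was 6.05, because the minimum over all gated cells left out genes found mainly in the Schwann gate, such as Gjc3 (39 of 41 UMIs) and Ugt8a (22 of 23). Of the genes named by the rule on level, Cd9, a tetraspanin, stood at 772 CPM in the Schwann gate, Gldn (gliomedin, which gathers sodium channels at nodes) at 542 CPM, Cadm4, an adhesion molecule of the Schwann cell surface, at 276 CPM, and Ndrg1, whose loss causes an inherited demyelinating neuropathy, at 255 CPM. The Schwann gate held 429 of 521 gated Gldn UMIs (log2 ratio 9.18) and 218 of 688 gated Cadm4 UMIs (5.85), and macrophages held 350 of the latter. Cd9 was higher in endothelial cells, at 1051 CPM, and Ndrg1 was not separated from them (315 CPM). Smooth muscle cells (927 CPM) and tenocytes (814 CPM) also stood above the Schwann gate in Cd9. Nfasc rested on 9 UMIs in 5 cells (11.4 CPM) and was not separated from mesenchymal cells (16.9 CPM, log2 ratio -0.57, -1.71 to 0.37). Egr2, the transcription factor that drives myelination, was at 37.9 CPM (25.6 to 54.1) in the Schwann gate and at 138 CPM in macrophages, and its log2 ratio was -1.43 (-2.00 to -0.92). The intervals of satellite cells (53.5 CPM), smooth muscle cells (43.3), mesenchymal cells (40.4) and tenocytes (38.2) overlapped that of the Schwann gate. Endothelial cells were at 12.8 CPM, dendritic cells at 8.97 and muscle fibres at 0, so among these classes only macrophages stood clearly above the Schwann gate. The 10 genes under the minimum had 1 to 39 UMIs in the Schwann gate, and Gjb1, Fa2h, Ncmap and Pmp2 had 4 or fewer. Ugt8a and Gal3st1, enzymes of the myelin lipids galactosylceramide and sulfatide, gave 27.8 and 59.4 CPM there.

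Genes of the repair and immature Schwann cell state were set beside the myelin genes. Of 14 listed genes 13 passed the minimum, and 12 of them were at least 2-fold higher in the Schwann gate, against 24.1% of all tested genes, with a median log2 ratio of 7.18. Sox2, Olig1 (142 of 153 UMIs) and Artn (28 of 72) reached the minimum only through the Schwann gate, so the count is a description. Ncam1, an adhesion molecule counted among the 12, was still higher in satellite cells (449 against 134 CPM). Runx2, a transcription factor of bone and of injured Schwann cells, was at 2219 CPM (2116 to 2325), and Btc, a ligand of the EGF receptor family, at 970 CPM (902 to 1041). Gap43, a growth cone protein, stood at 631 CPM in 70 of 80 cells. Jun, the leading factor of the repair state, was at 1246 CPM in the Schwann gate, but tenocytes were at 1842 CPM, and its log2 ratio of 0.41 was under 2-fold. No Shh UMI was found in any gated class. Some of these genes had been named in earlier results of these data, so the count is no independent evidence.

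**Figure D4:**
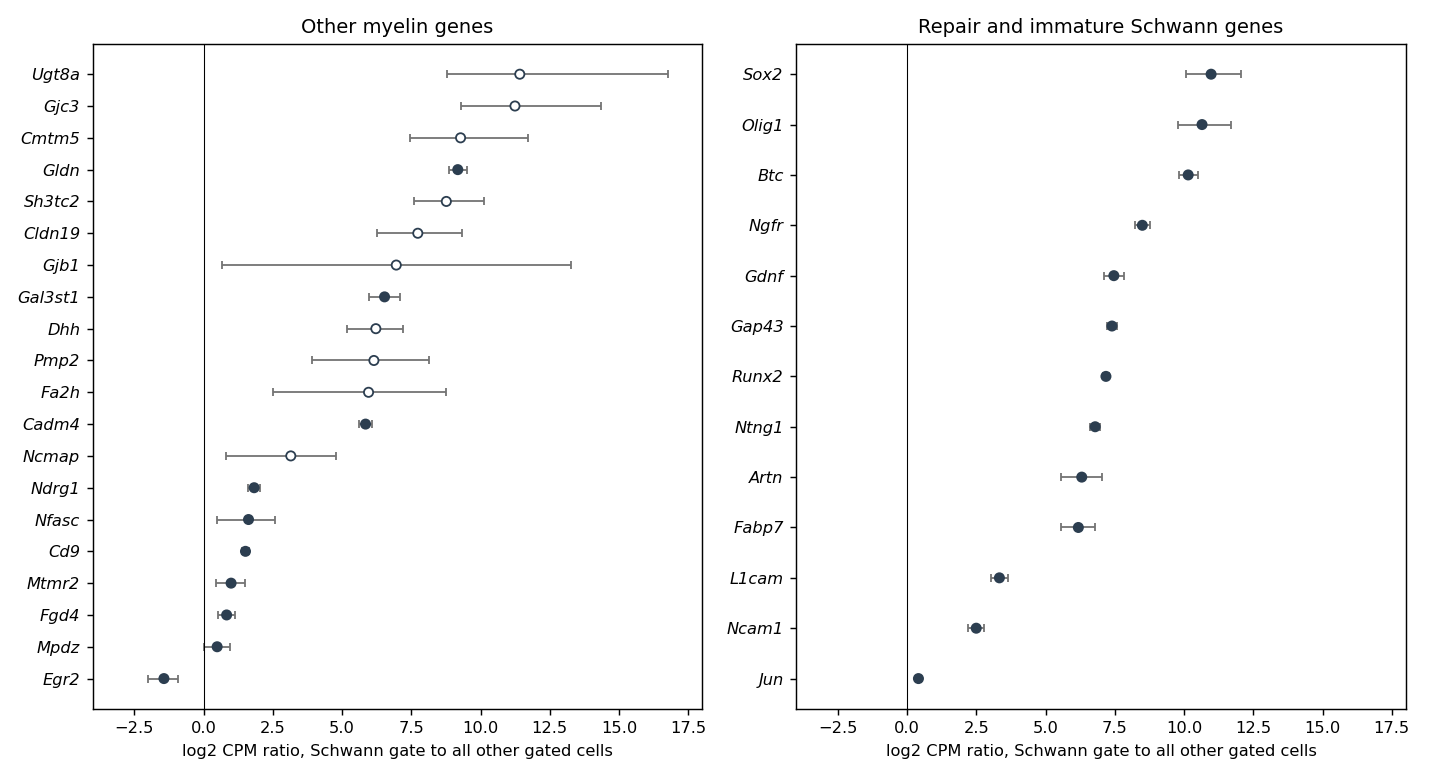
Log2 ratio of the level in the Schwann gate to that in all other gated cells, with 95% counting intervals, for 20 other myelin genes (left) and 13 repair or immature Schwann genes (right), open points for genes under 50 UMIs. Egr2 is the 1 myelin gene under 0, and 12 of the 13 repair or immature genes lie above a log2 ratio of 2.

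The myeloid classes that held Mbp, Cnp and Pmp22 were split by pairs of genes detected together. Cells with Lyve1 and Folr2, genes of resident macrophages, numbered 2502, and their Pmp22 level was 498 CPM (490 to 505), with a UMI in 94.1% of cells. Cells with Gpnmb and Fabp5, genes of lipid-laden macrophages, were at 152 CPM (140 to 165, 209 cells), and cells with Ly6c2 and Chil3, genes of monocytes, at 27.0 CPM (20.5 to 34.9, 175 cells). The order of Pmp22 was steep, and Mbp did not share it. Mbp was at 19.0 CPM in both of the first groups and at 44.7 (36.2 to 54.5) in the monocyte pair, and Cnp lay between 15.8 and 26.9 CPM. Median depth was 11972, 18648 and 11708 UMIs in that order, and 82 cells with several pairs were left out. The 2225 cells with none of the pairs were at 199 CPM of Pmp22, 31.1 of Mbp and 18.9 of Cnp.

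In the dendritic gate, Mbp was at 89.8 CPM (79.8 to 101) in 168 cells with Xcr1 and Clec9a, genes of the conventional type that presents dead cell antigens. It was at 47.3 CPM (35.6 to 61.6) in 95 cells with Cd209a and Flt3, and the 12 cells with Ccr7 and Fscn1 held 13 UMIs (85.6 CPM, 45.6 to 146). Cnp was at 53.3 CPM (45.6 to 62.0) in the first of these groups and 40.4 (29.7 to 53.7) in the second, with overlapping intervals. The 12 cells with Ccr7 and Fscn1 held no Cnp UMI (0 to 24.3 CPM). Mag, Prx, Drp2 and Pllp had no UMI in any of the dendritic groups, and Mal had 1.

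**Figure D5:**
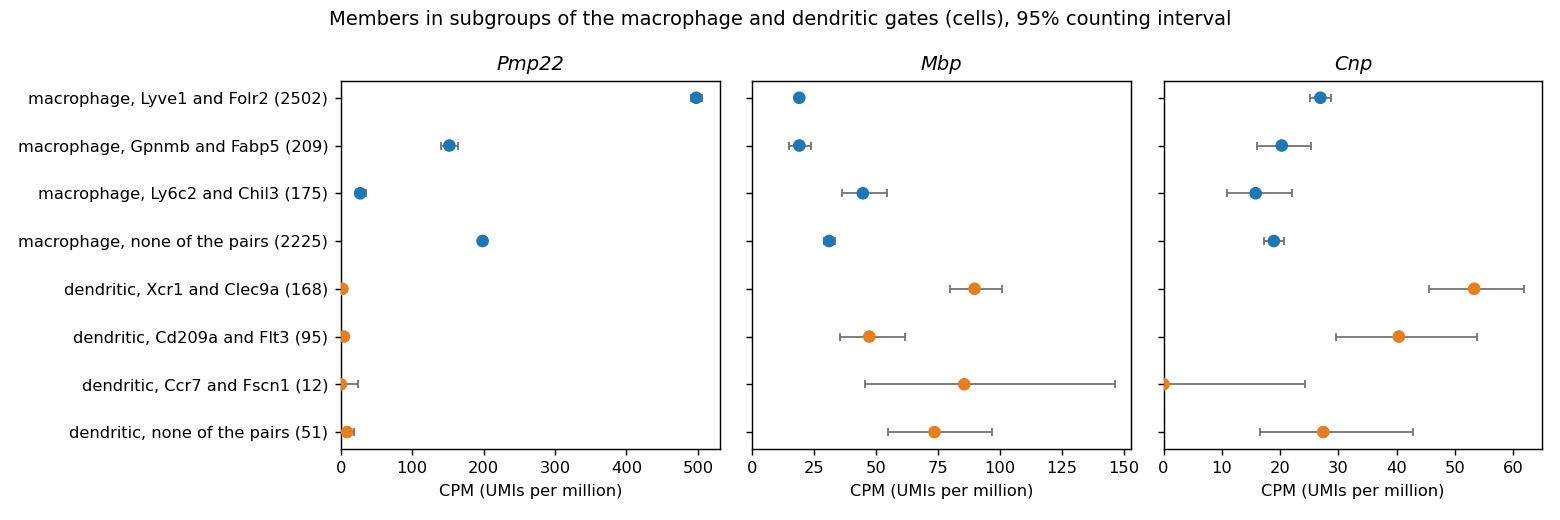
Level in CPM of Pmp22, Mbp and Cnp (panels) in cells of the macrophage gate (blue) and dendritic gate (orange) grouped by pairs of genes detected together, with exact Poisson 95% intervals and cell numbers in brackets. Pmp22 falls from 498 CPM in Lyve1 and Folr2 cells to 27.0 in Ly6c2 and Chil3 cells, whereas the highest Mbp level is 89.8 CPM, in Xcr1 and Clec9a dendritic cells.

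Across the 9 classes the levels of Mal and Pllp ran together more closely than those of any other pair of members, with a Pearson r of 0.99 on log2(CPM + 1). Outside the Schwann gate both genes had few UMIs, and endothelial cells, the next class for both, held 4 of Mal and 2 of Pllp. The classes come from 1 library and differ in depth and size, so this r is a description. Pmp22 and Mal had an r of 0.08, and Cnp and Drp2 an r of -0.55. Of all genes with at least 50 UMIs, Apba2, Fam89a and Moxd1 had the 3 patterns most like that of Mal (r of 0.991, 0.987 and 0.979), and the same 3 were nearest to Pllp (0.999, 0.996 and 0.996). A gene can reach that minimum through the Schwann gate alone, and these r values rest mainly on that gate, so they are a description. Those most like Pmp22 were Fam20c (0.96), Wls (0.96) and Egr1 (0.95), and those most like Drp2 were Sytl5, Fgfr4 and Hs6st3 (each at 0.98). For Mbp they were 9330136K24Rik (0.93), 9230116N13Rik and Enoph1 (both 0.92), for Cnp Cstf1 (0.92), Fdxacb1 and Dffa (both 0.90). For Mag they were Gm20125, Tgm1 and Celsr3 (each at 0.99), and for Prx Zfp763, Sirt6 and Kyat1 (0.98, 0.98 and 0.97).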

How the data were processed

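One droplet library (3′ kit) of GFP+ cells was used. The values are raw UMI counts per gene and barcode, deposited by the authors as a filtered matrix. The submitters' processing notes name Cell Ranger 7.1.0, Seurat 4.30 and mm10, the matrix header names version 8.0.1, and the methods name both GRCm39 and GRCm38. Positions and sequences are those of RefSeq on GRCm38.p6. The authors' removal of free RNA and doublets came after these counts.

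Barcodes with at least 5000 UMIs, over 200 genes and under 10% mitochondrial counts were kept. The Schwann gate used raw marker UMIs (at least 3 over at least 2 genes), so deeper barcodes passed it more easily. The other gates used the UMIs of marker lists per 10000 UMIs of a barcode and the number of markers detected. Barcodes that passed several gates were left out, which was the only treatment of doublets, and some may remain. UMIs were summed per class and divided by the class total, times 1000000 (CPM). Intervals are exact Poisson for CPM, exact binomial (Clopper-Pearson) for shares, and exact conditional for log2 ratios, all at 95%. A share of 0 is given with the limit that 3 counts set. Thinned shares are from 1 random draw, set beside the exact expected share. Only the intervals were checked on simulated data, with counts drawn with counting error alone. The gates, the thinning and the correlations were not simulated. The software was scipy 1.17.1 and numpy 2.4.6 for intervals, pandas 2.3.3 for tables and matplotlib 3.10.9 for plots, under Python 3.11.15.

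The members, marker lists, gene lists and alternatives were chosen with earlier results of these data known, and the minimums of the gates were set from the marker UMIs. Named genes were the 8 members, the 4 genes of each list with the highest level in the Schwann gate, and for each member the 3 genes with the most similar levels over classes. Egr2, Nfasc, Ugt8a, Gal3st1, Shh, Gjc3, Gjb1, Fa2h, Ncmap, Pmp2, Sox2, Olig1, Artn, Ncam1, S100b and the subgroup pairs were added after values were seen. Promoter windows of Mbp and Drp2 and the protein sequences were not analysed here, and some listed genes are not reported here.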

Additional observations from a re-analysis of the deposited data

How the results depend on the processing

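The count of members at least 2-fold higher in the Schwann gate was 4 to 6 (17.5% to 24.6% of all tested genes) over 12 alternatives. It was 4 of 6 tested with a minimum of 10000 UMIs and 4 of 7 with barcodes of several gates kept. Without the minimum of 50 UMIs it was 6 of 8. The median log2 ratio was 1.40 to 2.24 over the same 12 alternatives, and no interval was computed for a median. Of 87 recomputed member ratios 77 stayed within the interval of the reported ratio, and no direction changed. With barcodes of several gates kept, the log2 ratio was 1.00 for Mbp (just under 2-fold), -0.99 for Pmp22 (no longer 2-fold lower), 8.20 for Mal and 3.22 for Cnp, and the shares were 34.1% for Pmp22 and 53.7% for Cnp. With under 5% mitochondrial counts the ratio of Mag was 1.49 and the share of Prx 8.06%. With a minimum of 10000 UMIs the shares of Prx and Pllp were 7.14% and 25.0%, in 28 cells. With the other classes weighted equally, added after seeing the data, the ratios were -0.64 for Pmp22, 5.04 for Mag, 5.67 for Mal, 4.33 for Cnp and 4.99 for Pllp. Thinned to 1000 UMIs, the shares were 5.00% for Mbp, 8.75% for Pmp22, 0% for Mag and Prx, 5.00% for Mal, 33.8% for Cnp and 1.25% for Pllp. Without thinning they were 37.5% for Mbp, 35.0% for Pmp22, 8.75% for Mag, 10.0% for Prx, 86.2% for Cnp and 12.5% for Pllp. Shares were drawn anew in each setting, so the draw is part of any move, and the expected shares without a draw, added after seeing the data, were all within the intervals of the reported ones (0.468% to 73.3%). The thinning settings differ by construction in depth, and for the others the cause was not tested. Mag, Prx, Drp2 and Pllp had 1 to 17 UMIs in the Schwann gate, so differences of less than several-fold in them were not detectable at this depth. No paired analysis was possible because only 1 library was analysed.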

Other observations

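Barcodes below the depth used for the gates also held the members. In 9827 barcodes with 2000 to 5000 UMIs, Pmp22 was at 251 CPM (245 to 257), Mbp at 22.7 (21.0 to 24.5), Cnp at 20.7 (19.0 to 22.4), Drp2 at 5.22 (4.41 to 6.13) and Mal at 0.355 (0.170 to 0.653). In 15913 barcodes with 1000 to 2000 UMIs, the same genes were at 279, 20.6, 22.7, 3.99 and 0.773 CPM. The 478 deep barcodes that passed no gate held 269 Mbp UMIs (42.3 CPM, 37.4 to 47.6), 131 Cnp UMIs and no Mal UMI, and their Gfp level was 784 CPM, against 594 CPM in the Schwann gate and 440 CPM in macrophages.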
